A study of Mus musculus with 148 samples.

Results

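DNA modification of segment 3 enterocytes was compared between 8 P60 samples and 6 P90 samples from mice given lactose-free milk (lac-), which together are 14 of the 148 samples of the series. The members were chosen by their labels, the age, the milk and the segment, and not by any measured value. The tested cytosines of the locus lie at chr1:128275665-128364310 of GRCm38, which holds the end of Ubxn4, all of Lct (minus strand, 128284756 to 128328318), all of Mcm6 (minus strand, 128331575 to 128359705) and the end of Dars. Of its 1102 CG rows, each a cytosine on 1 strand, 649 were tested, namely those where 3 or more samples of both ages had over 30 reads. The 2660 CG rows of 21 other autosomal targets, most of them imprinted genes, served as the reference, and 854 of them were tested in the same fit.

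All mice were of the strain the labels give as C57BL/6MCrl, and the labels call the cells enterocytes. No gene expression was measured in these files, so the cell type could not be checked against its markers. Segment 3 is named distal duodenum in the labels and proximal jejunum in the study. P60 mice drank water, whereas the P90 mice received lactose-free milk in its place from day 30 for 60 days, so that 30 days of age and the milk changed together and cannot be told apart in this comparison. Nothing else in the labels separates the groups. The study states fewer P60 mice per segment than the 8 labelled samples, so whether each sample is a separate mouse is not known, and p-values measure the spread between samples. Cytosine calls summed over the locus ranged from 16509336 to 45795732 in P60 and from 22040139 to 89115364 in P90. A read counts here once for each cytosine it covers. The median CpG of a sample had 1054 to 5917 reads.

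Lct encodes lactase, the enzyme of the enterocyte brush border that splits the milk sugar lactose, and its expression falls after weaning in most mammals. Mcm6, its upstream neighbour, encodes a subunit of the helicase that opens DNA for replication, and introns of the human gene carry an enhancer of LCT in which variants set whether lactase persists into adulthood. Methyl groups on cytosines of enhancers and promoters generally go along with low activity, and bisulfite sequencing reads methylated and hydroxymethylated cytosines alike as modified. Imprinted genes carry methylation on 1 parental copy, so their control regions sit near the middle of the scale in every tissue that keeps the imprint.

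The sequences below show the CpGs on which the comparison turns, 30 bases to either side on the strand that was read, from RefSeq GRCm38, with the measured CG in capitals. The one between Mcm6 and Dars was the only CpG past the Bonferroni threshold (lower at P90), the one in Mcm6 intron 16 rose, and those in Mcm6 exon 4 and Lct exon 10 fell, all without overlap between the ages. Of 623 CpGs of the locus covered in every sample, 3 had all P90 samples below P60 and 1 had all above. Over all 1422 such autosomal CpGs these were 33 and 2.
chr1:128363448, minus strand, between Mcm6 and Dars: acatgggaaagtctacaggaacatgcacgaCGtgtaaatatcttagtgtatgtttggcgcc
chr1:128333406, minus strand, Mcm6 intron 16: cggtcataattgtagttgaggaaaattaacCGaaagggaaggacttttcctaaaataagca
chr1:128351621, minus strand, Mcm6 exon 4: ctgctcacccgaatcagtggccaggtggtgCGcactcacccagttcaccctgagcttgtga
chr1:128295353, minus strand, Lct exon 10: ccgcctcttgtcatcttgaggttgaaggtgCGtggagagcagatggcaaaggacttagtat

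The region in which the P90 samples differed most from each other is Mcm6 exon 13-intron 13. The plus strand of chr1:128338086-128338385 follows, with its 10 CG dinucleotides in capitals, which hold 15 of the 18 measured cytosines of that cluster.
Mcm6 exon 13-intron 13: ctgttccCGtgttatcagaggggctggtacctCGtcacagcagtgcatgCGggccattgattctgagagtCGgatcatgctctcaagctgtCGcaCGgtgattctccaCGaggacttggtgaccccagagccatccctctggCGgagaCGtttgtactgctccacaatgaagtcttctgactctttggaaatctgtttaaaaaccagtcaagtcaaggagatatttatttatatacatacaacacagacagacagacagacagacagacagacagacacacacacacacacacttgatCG

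Before the ages were compared, each sample was set against the 9 segments of P60 at the CpGs of 14 clusters that differ along the intestine. These clusters were taken from P60 segments other than segment 3, so none of the 14 samples helped to choose them. P90 replicates 4 and 5 stood apart. Replicate 4 lay nearest to the mean of P60 segment 7, at a root mean square distance of 1.87 percentage points, and 11.3 points from P60 segment 3. Replicate 5 lay nearest to P60 segment 6, at 3.82 points, and 6.203 points from segment 3. The other 4 P90 samples lay nearest to segment 3, at 1.63 to 4.04 points, and the P60 samples lay 0.867 to 2.57 points from the mean of the rest of their own segment. Of the 8 P60 samples, 5 lay nearest to segment 3, replicate 1 to segment 2 and replicates 4 and 8 to segment 4. The labels place replicates 4 and 5 in segment 3 and they were kept there, and results that rest on them are given with and without them.

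At the 14 clusters the P90 samples, with replicates 4 and 5 included, were more unlike each other than the P60 samples, and their mean moved little. Mean modification was higher at P90 in 7 clusters and lower in 7, with differences of -1.53 to 7.63 percentage points. 1 cluster, Mcm6 intron 16, passed the threshold after adjustment over the clusters (7.14% of the 14), and 2 had an unadjusted exact p under 0.05 (14.3%). With replicates 4 and 5 included, the standard deviation was larger at P90 in 12 of 14 clusters, by ratios of 0.696 to 5.51 over all 14. P90 replicate 4 was the highest of all 14 samples in 8 clusters and exceeded every P60 sample in 10, replicate 5 exceeded every P60 sample in 7, and replicate 1 was the lowest in 6 and lay below every P60 sample in 10. The P90 group therefore spread to both sides of P60. Without replicates 4 and 5, 13 of 14 clusters were lower at P90 and Mcm6 intron 16 was higher. Then 3 clusters had an unadjusted exact p under 0.05, namely Mcm6 intron 16 and, lower at P90, Lct intron 2 and Lct intron 9-exon 9-intron 8, and 0 passed after adjustment. Replicates 4 and 5 were set apart by their values at these same clusters, and replicate 1, on the low side, was kept. The p-values without replicates 4 and 5 are therefore bound to that choice and only describe the remaining samples.

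**Figure D1:**
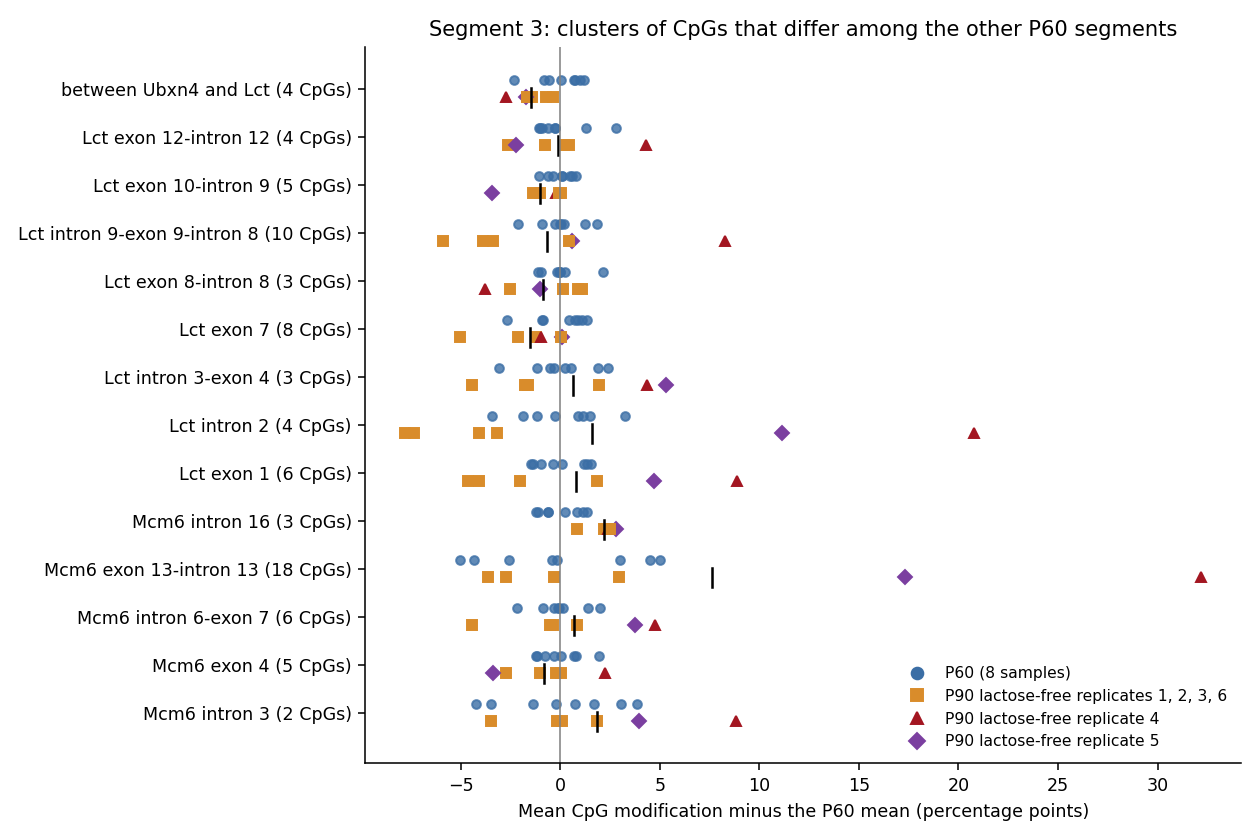
Mean modification of the CpGs of each cluster in each sample, as the difference from the P60 mean in percentage points (x axis), for 14 clusters from Ubxn4 (top) to the start of Mcm6 (bottom). Circles are the 8 P60 samples, other symbols the 6 P90 lactose-free samples, and the vertical bar is the P90 mean; P90 replicates 4 and 5 lie far to the right at Mcm6 exon 13-intron 13 and Lct intron 2, where the other P90 samples lie within or below the P60 range.

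The larger spread was seen mostly at the clusters. Over the 81 CpGs of the clusters covered in all 14 samples, the median standard deviation between samples was 2.02 points at P60 and 3.86 points at P90, and it was larger at P90 for 74. Over the other 542 CpGs it was 1.26 and 1.49 points, and larger at P90 for 367. Replicate 4 exceeded every P60 sample at 52 of the 81 CpGs and replicate 5 at 37, and at 74 and 42 of the 542. The medians without these 2 samples are not given here, so a larger spread among the other P90 samples is not shown. Counting error is part of these deviations, and the difference in spread was not tested.

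Mcm6 exon 13-intron 13, the 18-CpG cluster at the intron whose human counterpart holds the lactase enhancer, had the widest spread. Its mean was 33.9% ± 3.89 (SD, n = 8) at P60 and 41.5% ± 14.3 (SD, n = 6) at P90. The P60 values were 29.6, 31.3, 36.9, 38.4, 33.5, 28.8, 33.8 and 38.9%. The P90 values were 30.2, 33.6, 31.1, 66.1, 51.2 and 36.9%. Replicates 4 and 5 were above every P60 sample and the other 4 lay inside the P60 range, so the ages overlapped. The difference of 7.63 points (95% interval -2.42 to 18.99) did not pass an exact permutation test (two-sided p = 0.181, adjusted p = 0.506). Without replicates 4 and 5 the difference was -0.934 points (exact p = 0.677). Within sequencing lane 6, with 3 samples of each age, it was 1.28 points, and in lane 7, whose only P90 sample is replicate 4, it was 29.8 points.

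The same 2 samples were high over the whole cluster, not at a few of its cytosines. Replicate 4 was the highest of the 14 samples at all 18 CpGs, and replicate 5 exceeded all P60 samples at all 18. The mean differences ran from 1.33 to 12.7 points, with a median of 7.34. Without both, 8 of the 18 were higher at P90, with differences of -4.74 to 2.43 points. The CpG of the cluster with the lowest p, chr1:128337771 on the plus strand in intron 13, went from 53.5% ± 5.54 to 64.3% ± 14.4 (adjusted p of the quasi-binomial F test 0.172). 17 of the 18 lie in the copied gap of a probe and 1 lies in a probe arm. Exon 13 as annotated (12 CpGs) went from 33.6% to 41.7% and intron 13 (7 CpGs) from 49.6% to 54.04%, with exact p of 0.166 and 0.246.

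**Figure D2:**
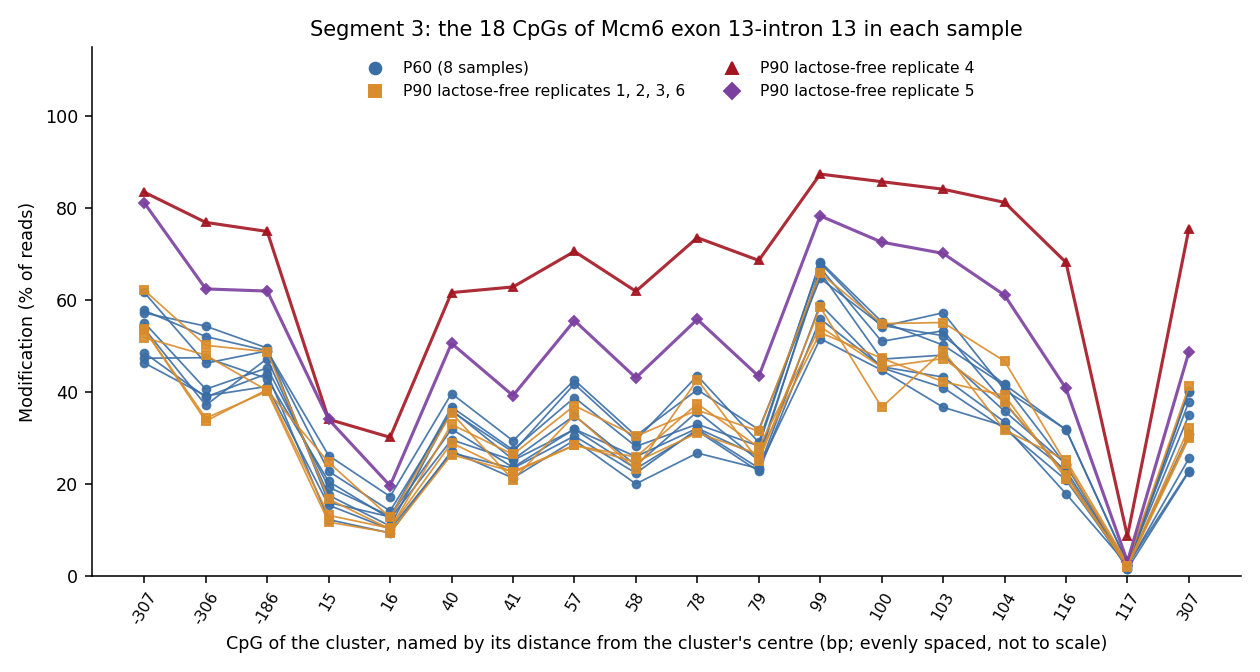
Modification in percent of reads (y axis) at each of the 18 CpGs of Mcm6 exon 13-intron 13, in order along the chromosome and named by distance from the centre of the cluster in bp (x axis, evenly spaced), with 1 line per sample. The line of P90 replicate 4 is the highest at all 18 CpGs and that of replicate 5 lies above all 8 P60 lines, while the lines of the other 4 P90 samples run among those of P60.

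Lct intron 2 and Lct exon 1 had the same pair of high samples. The 4-CpG cluster of Lct intron 2 ranged from 23.7 to 30.4% at P60, and the P90 values were 19.4, 19.8, 23.1, 47.9, 38.3 and 23.97%. Replicates 4 and 5 were above every P60 sample and replicates 1, 2 and 3 were below the lowest. The means were 27.2% ± 2.12 and 28.7% ± 11.7, a difference of 1.59 points (95% interval -6.33 to 10.8, exact p = 0.731). Without replicates 4 and 5 the difference was -5.60 points (exact p = 0.00404, adjusted p = 0.0566), which is the largest fall among the clusters in that setting. In lane 6 it was -3.63 points and in lane 7 it was 18.4 points. The CpG of the cluster with the lowest p, chr1:128314520 on the minus strand, went from 27.2% ± 4.82 to 30.1% ± 15.6 (adjusted p 0.639).

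Lct exon 1, the first exon of the gene with its promoter-proximal CpGs, had 6 CpGs in its cluster. P60 ran from 79.4 to 82.4%, and the P90 values were 76.8, 76.2, 78.8, 89.7, 85.5 and 82.7%. The means of 80.8% ± 1.24 and 81.6% ± 5.34 differed by 0.775 points (exact p = 0.713), and by -2.23 points without replicates 4 and 5 (exact p = 0.0869). All 9 CpGs of exon 1 as annotated went from 81.5% to 82.1%.

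Across the rest of Lct the clusters changed by at most 1.53 points. Lct intron 9-exon 9-intron 8 (10 CpGs) went from 62.1% ± 1.21 to 61.5% ± 5.04, and without replicates 4 and 5 the difference was -3.18 points (exact p = 0.0162, adjusted p = 0.0754). Lct exon 7 differed by -1.53 points, Lct exon 10-intron 9 by -1.002, Lct exon 8-intron 8 by -0.863, Lct exon 12-intron 12 by -0.116 and Lct intron 3-exon 4 by 0.626. None of these 5 passed the exact test, with or without adjustment. The cluster between Ubxn4 and Lct, downstream of the lactase gene, differed by -1.45 points (exact p = 0.0300, adjusted p = 0.210). In the remaining clusters of Mcm6, intron 6-exon 7 differed by 0.678 points, exon 4 by -0.833 and intron 3, where 2 of 5 CpGs were covered in every sample, by 1.84, and none of these 3 passed either.

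Mcm6 intron 16, between Lct and the lactase enhancer, was the cluster that rose. Its 3 CpGs averaged 84.1% ± 1.02 (SD, n = 8) at P60 and 86.3% ± 0.708 (SD, n = 6) at P90. The P60 values were 84.9, 82.9, 82.995, 85.4, 83.5, 83.5, 84.3 and 85.2%. The P90 values were 84.9, 86.6, 86.3, 86.5, 86.9 and 86.6%. Of the P90 samples, 5 were above all of P60 and replicate 1 lay within the P60 range. The rise of 2.22 points (95% interval 1.16 to 3.30) passed the exact permutation test (p = 0.00266, adjusted p = 0.0373). It was 2.91 points in lane 6 and 1.75 points in lane 7 (exact p over both lanes 0.0167, the smallest those samples allow). The size held without replicates 4 and 5, at 2.02 points (exact p = 0.0121), but the adjusted p was then 0.0754. It was 0.0734 without any 1 of P60 replicates 2, 3, 5, 6 and 7, 0.0761 without any 1 of P90 replicates 2 to 6, and 0.0886 with the reads of the CpGs pooled.

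Most of that rise came from 1 cytosine, chr1:128333406 on the minus strand, whose sequence is shown above. It read 75.5, 77.6, 74.1, 78.5, 76.8, 77.03, 77.8 and 78.2% at P60. At P90 it read 79.7, 82.4, 80.96, 81.7, 80.2 and 81.9%. The ages did not overlap at this CpG, and the mean rose from 76.9% ± 1.49 to 81.2% ± 1.06, by 4.23 points (quasi-binomial F test, Benjamini-Hochberg adjusted p 0.00909, Bonferroni 0.191). Without replicates 4 and 5 the adjusted p was 0.0804 at a difference of 4.32 points. The cytosine of the opposite strand at the same CpG, 128333405, was read at a lower depth and went from 80.1% ± 2.93 to 82.2% ± 4.55 (adjusted p 0.803). The other 2 CpGs of the cluster, 128333192 and 128333516 on the plus strand, differed by 0.0730 and 2.35 points, with adjusted p of 0.845 and 0.192. Outside the cluster, 128333436 and 128333435 differed by -0.242 and 0.283 points. 128333193, opposite 128333192 and at a median of 185.5 reads, went from 89.8% ± 3.66 to 84.3% ± 6.28, a difference of -5.52 points (adjusted p 0.291). The 7 CpGs of Mcm6 intron 16 together went from 87.5% ± 0.828 to 87.95% ± 1.01 (exact permutation p = 0.359).

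Over single CpGs the locus changed little, and mostly downwards. At the Bonferroni threshold of 0.01 over all 1503 tested autosomal CpGs, 1 CpG was called, which is 0.0665% of them, and it lies in the locus. With the Benjamini-Hochberg adjustment at 0.05, 25 of the 649 CpGs of the locus were called, 3 higher and 22 lower at P90. Over all 1503 CpGs 7.58% were called, 0.532% higher and 7.05% lower. By pooled reads 450 of the 649 were lower and 199 higher, with a median difference of -0.615 points, or -0.376 points by the mean over samples. In the other targets 89 of 854 were called, 5 higher and 84 lower, with medians of -0.956 points by pooled reads and -0.962 by the mean over samples.

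The number of called CpGs depended on single samples. Without P90 replicate 5, the only file marked as merged, 7 CpGs of the locus were called, and without replicates 4 and 5 only 1. Without P60 replicate 2, 6 or 7 the count was 15, 15 and 16, and without P90 replicate 1 it was 37. With the sequencing lane as a covariate it was 3, and in the 9 samples of the lanes with both ages it was 0, with the quasi-binomial F test in each case. An unadjusted p of that test under 0.05 was found for 139 of the 649 CpGs of the locus, 18 higher and 121 lower. In the other targets it was found for 195 of 854. Over all 1503 tested autosomal CpGs it was found for 334, 45 higher and 289 lower.

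The 22 CpGs that fell lay in nearly fully modified sequence across the locus. 12 were in Lct, 5 in Mcm6, 1 in Ubxn4, 2 between Ubxn4 and Lct and 2 between Mcm6 and Dars. 18 were over 90% at P60, their median level was 94.8%, and their differences ran from -6.28 to -0.612 points with a median of -1.38. None of the 22 belonged to any of the 14 clusters, which hold 84 of the 649 tested CpGs of the locus. Of the 649, 322 were above 90% at P60, and over these the median difference was -0.559 points. Whether the called CpGs differ from these shares was not tested.

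**Figure D3:**
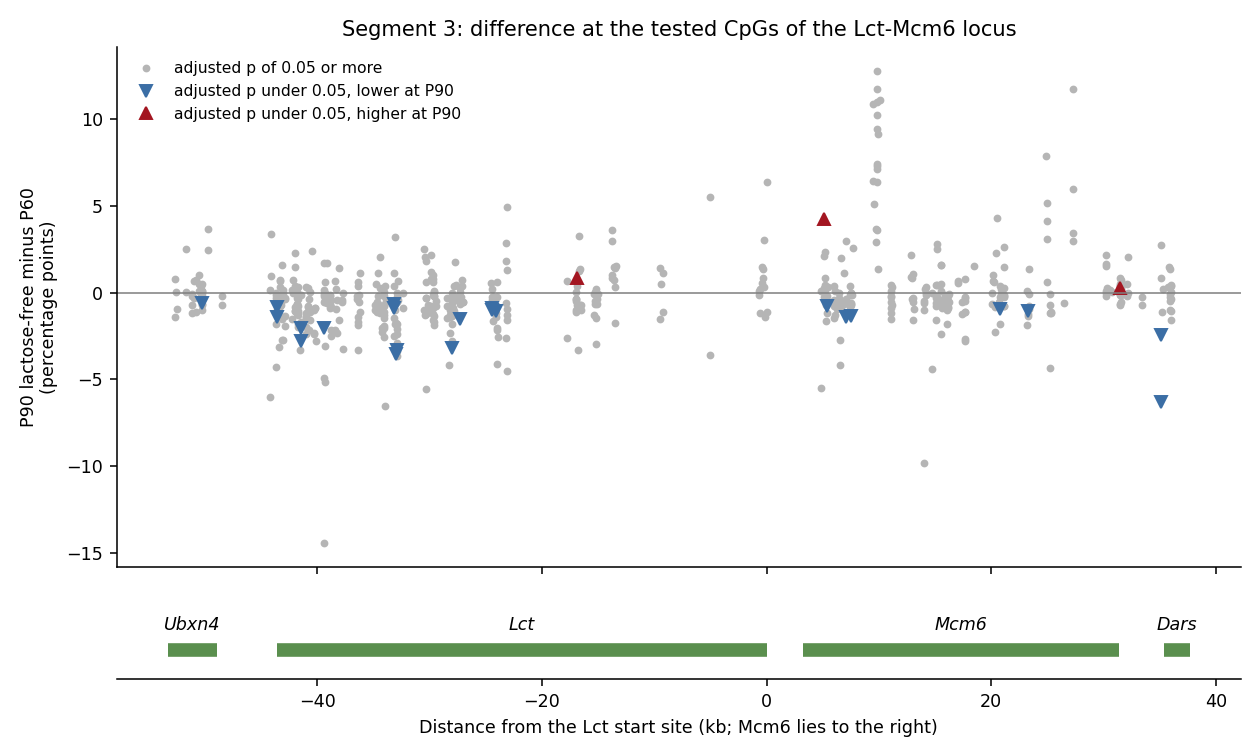
Difference between the mean of the 6 P90 lactose-free and the 8 P60 samples in percentage points (y axis) at the 649 tested CpGs, by distance from the Lct start site in kb (x axis), with the genes drawn below. Triangles mark the 25 CpGs with an adjusted p under 0.05, of which 22 point down; the column of grey points 10 kb to the right of the start site is Mcm6 exon 13-intron 13.

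The CpG past the Bonferroni threshold, chr1:128363448 on the minus strand, lies between the start of Mcm6 and the end of Dars, the gene of the aspartyl-tRNA synthetase. It read 90.6, 87.5, 89.9, 90.9, 88.3, 88.9, 89.5 and 89.4% at P60. At P90 it read 82.5, 81.4, 84.5, 83.6, 80.5 and 86.01%. All P90 samples were below all P60 samples, and the mean fell from 89.4% ± 1.14 to 83.1% ± 2.05, by 6.28 points (quasi-binomial F test, Bonferroni 0.00109). Without P90 replicate 5 the pooled difference went from -7.34 to -6.05 points and the Bonferroni p was 0.0147, and without replicates 4 and 5 the pooled difference was -6.08 points and the Bonferroni p was 0.0608. The Benjamini-Hochberg adjusted p stayed under 0.05 in both, at 0.0021 and 0.00868. In the lanes with both ages the pooled difference was -5.61 points (adjusted p 0.0814), and with lane as a covariate the adjusted p was 0.0458.

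Its neighbours did not all move with it. 128363421, 27 bases away in the same reads, went from 94.7% ± 1.13 to 92.2% ± 1.77 (adjusted p 0.0312), and 128363385 went from 73.1% ± 1.24 to 74.0% ± 4.30. Farther on, 128363509 went from 93.2% to 92.1% and 128363591 from 86.1% to 86.3%, with adjusted p of 0.133 and 0.954. The CpG 3 bases before it in the sequence shown, 128363451, was called modified in 8.81% ± 2.16 of reads at P60 and 11.6% ± 2.47 at P90.

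128363451 lies in the part of the molecule that the probe itself supplied. The gap copied by this probe is 110 bases long (128363341 to 128363450), 128363448 is the third base of it counted from the arm, and the arm, printed next, is written for converted DNA and holds T for each C.
Ligation arm of the probe over 128363451 to 128363485: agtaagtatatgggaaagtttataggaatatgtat
In all, 610 of the 649 tested CpGs of the locus lie in a gap, 1 in both a gap and an arm and 20 in an arm alone. The other 18 could not be placed on any of the 304 probes found at the locus in the study's probe table. The 20 in an arm alone were called modified in 0.723 to 8.81% of reads at P60, and 17 of them were higher at P90, with a median difference of 0.820 points. Of other CpGs that fell, 128295353 and 128286842 lie at base 2 of a gap counted from an arm, and 128351621 and 128304240 at base 5. Of the 93 CpGs in the first 5 bases of a gap, 7 were called after the Benjamini-Hochberg adjustment. Of the 610 in a gap, 23 were called. The part that the closeness to an arm has in the results at these CpGs and at 128363448 was not tested.

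2 of the 3 CpGs called as higher sat near the bottom of the scale. One, 128311410 on the minus strand in Lct intron 4, went from 2.58% ± 0.414 to 3.44% ± 0.526 (adjusted p 0.0393) and lies in a probe arm alone. The other, 128359794 on the plus strand in the Mcm6 promoter, went from 0.538% ± 0.122 to 0.792% ± 0.177 (adjusted p 0.0451). Of the other CpGs with the lowest p for a rise, 128285212 in Lct exon 17 and 128298028 in Lct intron 9 also lie in arms alone. 128359855 and 128359744 in the Mcm6 promoter stayed at or under 1.01% in both group means, and 128323248 in Lct intron 1 went from 32.98% ± 2.29 to 38.5% ± 7.67, a difference of 5.49 points that was 0.796 points without replicates 4 and 5. The opposite strand of that CpG, at a median of 91.5 reads, differed by -3.59 points. 128278556 in Ubxn4 exon 13 went from 92.7% to 96.3% on a median of 79 reads. The adjusted p of these 6 CpGs ran from 0.116 to 0.158.

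These rises stood beside a rise in cytosines that are not followed by G. CpH cytosines are mostly unmethylated in somatic tissues, and bases that escape conversion are also read as modified. How much of the CpH share is either was not tested. It was 0.373% ± 0.0183 in the locus at P60 and 0.453% ± 0.0144 at P90, a difference of 0.0801 points with all P90 samples above all P60 samples (exact p = 0.000333, the smallest that 8 against 6 allows). In lanes 6 and 7 the difference was 0.0732 and 0.0931 points. Of the 68 CpGs of the locus below 20% at P60, 53 were higher at P90, with a median of 0.334 points. Without replicates 4 and 5 that median was 0.0194 points. In the other targets 38 of 72 such CpGs were higher, with a median of 0.0523 points, and -0.198 without both. The part of the CpH rise in these values was not tested.

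At 128295353 in Lct exon 10, P60 averaged 81.7% ± 1.43 and P90 78.2% ± 1.59 (adjusted p 0.00940), and all P90 samples were below all P60 samples. The same held at 128351621 in Mcm6 exon 4, which went from 96.1% ± 0.366 to 95.1% ± 0.212 (adjusted p 0.00854). 128301016 in Lct exon 8 went from 95.1% ± 0.552 to 93.6% ± 0.488 (adjusted p 0.00750) and the ages overlapped. Over all autosomal CpGs covered in every sample, 2.32% had all P90 samples below P60 and 0.141% had all above. In the locus these were 3 and 1 of 623 CpGs, and in the other targets 30 and 1 of 799. The remaining CpGs with the lowest p for a fall were 128284729 and 128284730, the strands of 1 CpG downstream of Lct, with 128286842 in Lct intron 15, 128295412 in Lct intron 9, 128304240 in Lct exon 7 and 128335364 in Mcm6 intron 14, with differences of -3.31 to -0.820 points.

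Averaged over exons, introns and flanks, no stretch of the locus passed. Of 60 features with at least 3 CpGs in every sample, 0 were called after adjustment, and 10 had an unadjusted exact permutation p under 0.05 (16.7%), all of them lower at P90. 44 of the 60 were lower. Lct exon 16 had the lowest p, with 95.1% ± 0.340 at P60 and 94.3% ± 0.324 at P90 (exact p = 0.00233, adjusted p = 0.140). Mcm6 exon 8 went from 77.8% to 76.8% (exact p = 0.00833). The lowest differences were Lct intron 10 at -2.22 points, Lct intron 15 at -1.58 and Mcm6 exon 15 at -1.46. With pooled reads Lct intron 10, on 3 CpGs, differed by -9.80 points, and with 1 sample left out by -2.78 to -1.35. The highest differences were Mcm6 exon 13 at 8.11 points, Mcm6 intron 13 at 4.47 and Mcm6 intron 11 at 0.869, and without replicates 4 and 5 these were -0.803, -1.11 and -0.597. Among the other features the study names, Lct exon 12 differed by -0.271 points, Lct intron 9 by -0.864, Lct exon 9 by -0.296, Lct intron 8 by -0.896, Lct intron 2 (16 CpGs) by 0.707 and Mcm6 intron 1 (9 CpGs) went from 8.77% to 9.40%.

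The whole locus differed less between the ages than between the samples. Over 623 CpGs covered in every sample the mean was 76.9% ± 0.313 (SD, n = 8) at P60 and 76.7% ± 0.905 (SD, n = 6) at P90, a difference of -0.178 points (95% interval -0.865 to 0.546, exact permutation p = 0.616). It was -0.859 points with pooled reads (exact p = 0.04995) and 0.265 in the lanes with both ages (exact p = 0.367). P60 samples lay between 76.5 and 77.4%, and P90 samples read 75.5, 76.3, 76.7, 78.3, 76.9 and 76.9%. Replicate 4 was above and replicates 1 and 2 were below all of P60. Without replicates 4 and 5 the difference was -0.585 points (exact p = 0.0404). In lane 6 it was -0.0268 points and in lane 7 it was 0.922 points.

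The other autosomal targets fell by more. Their mean over 799 CpGs went from 51.3% ± 0.420 to 49.9% ± 0.641, a difference of -1.36 points (95% interval -1.98 to -0.763, exact permutation p = 0.000999). P60 samples read 50.7, 51.4, 51.4, 51.6, 51.7, 50.5, 51.2 and 51.4%. P90 samples read 48.9, 49.9, 50.7, 49.9, 50.4 and 49.6%. The ages overlapped by P90 replicate 3 alone, which lay above 1 P60 sample. The difference was -1.12 points in lane 6 and -1.47 in lane 7 (exact p over both 0.0167, the smallest those samples allow), and -1.48 without replicates 4 and 5 (exact p = 0.00404). Replicates 4 and 5, far from the rest at the clusters, were not at either end here.

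Within a sample the mean of the locus thus gained on that of the reference. The locus mean exceeded that of the other targets by 25.7 points at P60 and 26.8 points at P90, a change of 1.19 points (exact permutation p = 0.00266), and of 0.899 points without replicates 4 and 5 (exact p = 0.0141). With reads pooled in place of the mean over CpGs it was 0.401 points (exact p = 0.519), so this change depended on how the CpGs were weighted. The sets also differ in level. At P60, 322 of 649 CpGs of the locus were above 90%, and 472 of 854 others lay between 40 and 60%. Above 90% the median difference was -0.559 points in the locus and -0.419 in the others, and between 80 and 90% -0.475 and 0.0806. In all classes below 80% the locus median was the higher. Without replicates 4 and 5 it was the lower in all classes above 20%.

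The fall of the reference was found in named imprinted regions. Of 19 targets with at least 3 CpGs in all samples, 15 were lower at P90 and 8 passed after adjustment (42.1%), all of them lower, with a median difference of -1.77 points over the 19. Slc38a4, an imprinted amino acid transporter, went from 51.02% ± 1.11 to 46.5% ± 2.32, and Commd1/Zrsr1, where a retrogene sits in an intron of a copper-handling gene, from 51.2% ± 0.969 to 48.1% ± 0.856. In these 2 (10.5%) all P90 samples were below all P60 samples (exact permutation p = 0.000333 for both, the smallest possible). Mest differed by -1.69 points, the region near H19 by -2.97, Trappc9/Peg13 by -1.97, Igf2r/Airn by -3.30, Herc3/Nap1l5 by -3.67 and H13/Mcts2, on 5 CpGs, by -7.21, with exact p of 0.000666 to 0.0127. With pooled reads, Herc3/Nap1l5 differed by -0.649 points and the region near H19 by -2.002, and neither was called. Zdbf2 differed by 0.219 points, Kcnq1/Kcnq1ot1 by 2.63 and Plagl1/Hymai by 2.00, and none of these 3 passed. Without replicates 4 and 5, the adjusted p was 0.0528 for Trappc9/Peg13 and 0.0537 for Herc3/Nap1l5, while Snhg14/Snrpn/Snurf, at -3.29 points with all samples (exact p = 0.0856), differed by -5.70 points (exact p = 0.00404, adjusted p = 0.0154). Within the lanes with both ages, Slc38a4, Commd1/Zrsr1, Mest, near H19 and Trappc9/Peg13 reached the smallest exact p of 0.0167. There 0 of the 19 targets were called after adjustment.

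**Figure D4:**
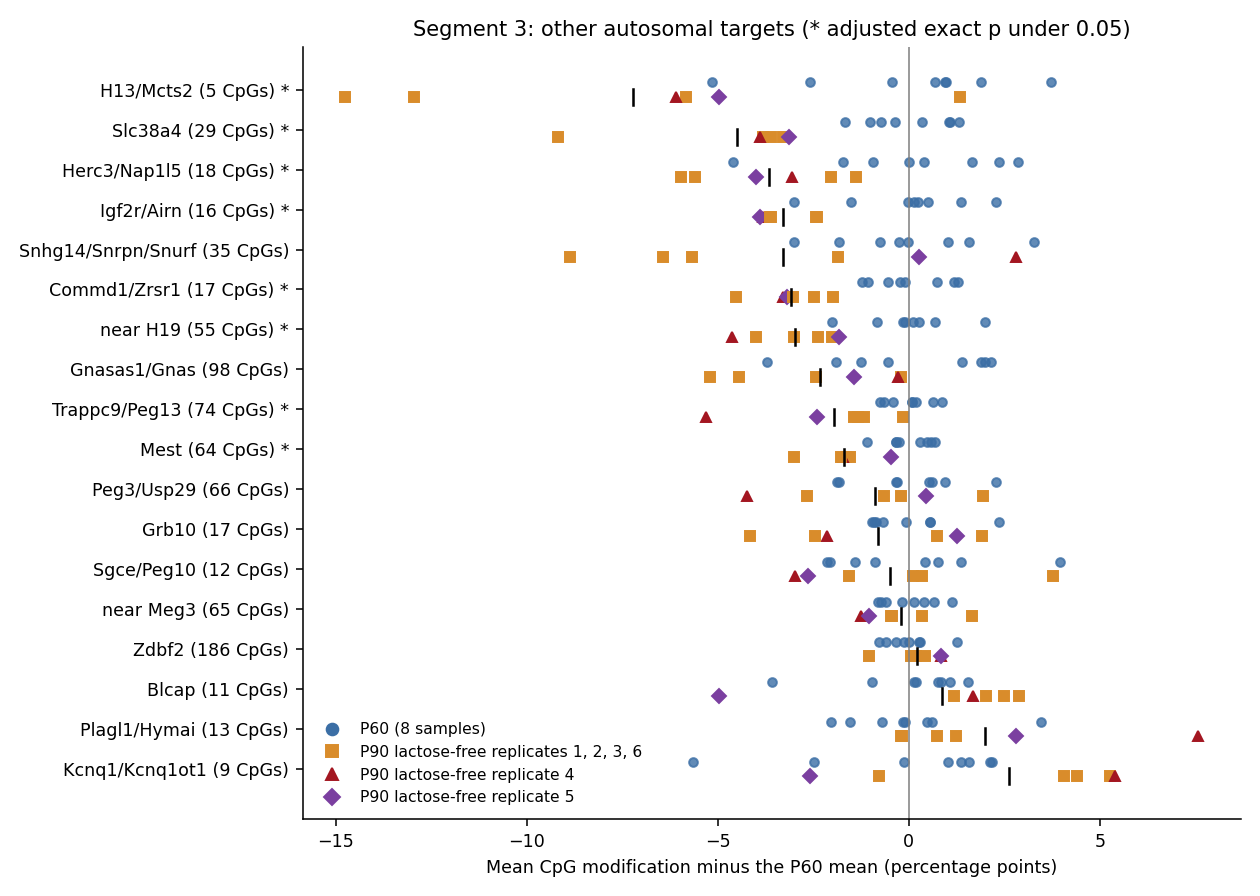
Mean modification of 18 of the 19 other autosomal targets in each sample, as the difference from the P60 mean in percentage points (x axis), ordered by the difference of the means. Circles are the 8 P60 samples, other symbols the 6 P90 lactose-free samples, the bar is the P90 mean and an asterisk marks an adjusted exact p under 0.05; most P90 symbols lie left of 0, and at Slc38a4 and Commd1/Zrsr1 all of them lie left of every circle.

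The 5 reference CpGs with the lowest p came from 2 of these regions, and their ages did not overlap. chr15:72810889 and chr15:72809194 at Trappc9/Peg13 went from 54.1% ± 1.45 to 49.5% ± 1.17 and from 52.99% ± 2.00 to 47.3% ± 1.52. chr11:22973926, chr11:22973934 and chr11:22973947 at Commd1/Zrsr1, close together, differed by -4.82, -4.63 and -4.68 points. All 5 had an adjusted p of 0.00750, and none passed the Bonferroni threshold. Over the reference CpGs between 40 and 60% at P60, 352 of 472 were lower at P90, with a median of -1.64 points. The measured CpGs of both regions follow, on the plus strand with the measured CG in capitals.
chr15:72810889, Trappc9/Peg13: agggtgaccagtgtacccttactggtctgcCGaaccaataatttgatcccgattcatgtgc
chr11:22973934, Commd1/Zrsr1: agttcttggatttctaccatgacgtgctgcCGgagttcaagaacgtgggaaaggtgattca

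Segment 3 was not shown to differ from the other segments in how the ages differed. For each of the 14 clusters the difference between P60 and P90 lactose-free in segment 3 was set against that in segments 1, 4, 7 and 8. The study took the segments from the same mice and the labels do not link them, so the tests treat samples of different segments as separate and their p-values are approximate. Of 56 such tests, with ages permuted 100000 times within segments, 0 passed after adjustment (lowest adjusted p 0.248) and 5 had an unadjusted p under 0.05. Mcm6 exon 13-intron 13 differed by 8.53 points in segment 1 (exact p = 0.0226), 7.63 in segment 3, 13.7 in segment 4 (exact p = 0.0106), -2.95 in segment 7 and -0.0690 in segment 8. Mcm6 intron 16 differed by 0.687 points in segment 1, 2.37 in segment 4 (exact p = 0.00715), 0.329 in segment 7 and 0.626 in segment 8. CpH modification of the locus was higher at P90 in all 5 segments, by 0.0653 to 0.0958 points.

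The 7 LAC+ samples of P90, from mice given milk with lactose, are set beside the lac- samples, with the same P60 samples as controls for both. Their Mcm6 exon 13-intron 13 values in segment 3 were 26.1, 28.5, 48.8, 42.9, 67.96, 57.4 and 83.3%, and 5 of the 7 were above every P60 sample. Their mean was 50.7% ± 20.7 (SD, n = 7), a difference of 16.8 points from P60 (exact permutation p = 0.0357), and of 9.19 points from lac- (exact p = 0.375). As among the lac- samples, some lay far from segment 3 of P60 over the clusters, and replicates 5, 6 and 7 lay nearest to P60 segments 7, 6 and 9. Without these 3, which were picked out by their values at the same clusters, the mean was 36.6% ± 11.004. The difference from P60 was then 2.68 points (exact p = 0.545). Mcm6 intron 16 was 86.7% ± 1.88 in LAC+ samples, 2.63 points above P60 (exact p = 0.00357), and 1.42 points above it without the 3 (exact p = 0.0505). The other autosomal targets averaged 48.7% and differed from P60 by -2.54 points and from lac- by -1.17 points (exact permutation p = 0.0192), the difference from P60 without the 3 was -1.92 points, and CpH modification of the locus was 0.472%. The LAC+ samples of segment 3 were sequenced in other lanes than the P60 samples, so lane and group cannot be told apart there.

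**Figure D5:**
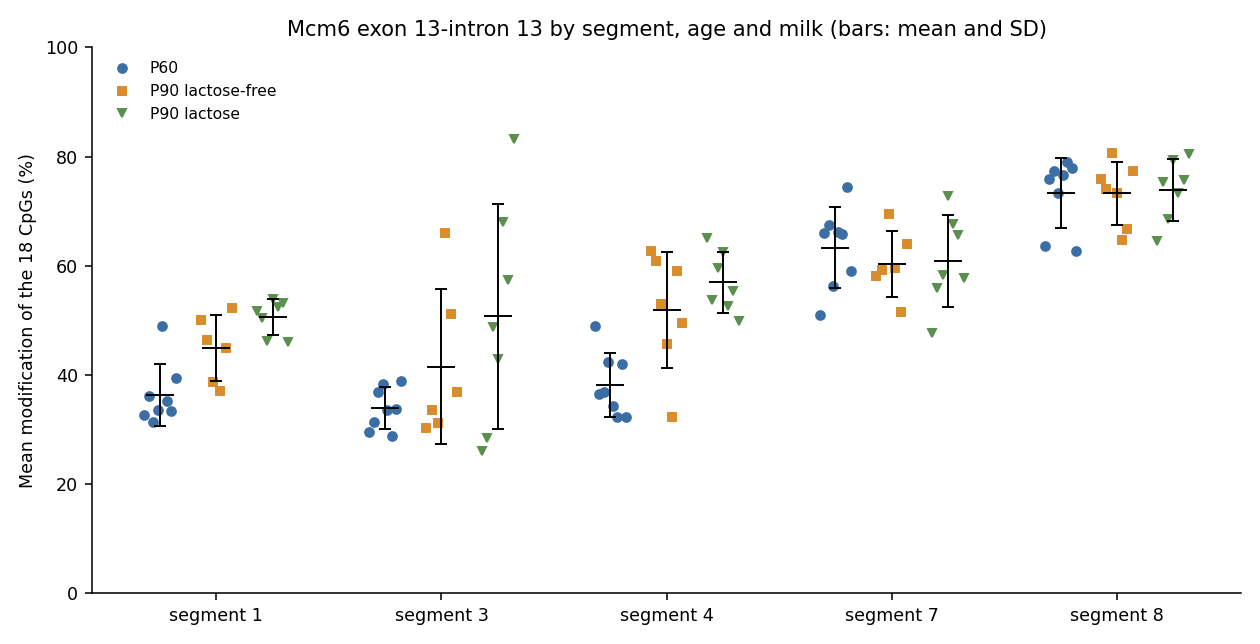
Mean modification of the 18 CpGs of Mcm6 exon 13-intron 13 in percent (y axis) in each sample of segments 1, 3, 4, 7 and 8 (x axis), for P60, P90 lactose-free and P90 lactose, with the mean and SD as bars. In segment 3 the SD grows from 3.89 points at P60 to 14.3 in lac- and 20.7 in LAC+ samples, while in segment 8 the means are 73.3, 73.2 and 73.9% and the SDs 6.45, 5.70 and 5.72.

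In the 3 P6 samples of segment 3, the youngest of the series, Mcm6 exon 13-intron 13 read 41.6, 12.8 and 6.62%, from a lane with no P60 or P90 sample of this segment. Of the 3 ages, P60 had the narrowest range at this cluster.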

How the data were processed

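Bisulfite-converted DNA was captured with padlock probes and sequenced. Per the labels the authors trimmed reads with Trimmomatic 0.32 and mapped them with Bismark to GRCm38, and they deposited for each cytosine the counts of modified and unmodified reads, with no normalization. What was merged in the 1 file marked merged is not given in the sources used here. Percent modification was modified counts over all counts, at cytosines with more than 30 reads. Depth was 16509336 to 89115364 cytosine calls summed over the locus, and no molecular identifiers are given. P-values and intervals measure only the spread between these samples.

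CpGs that passed this in 3 or more samples of both ages were fitted with a quasi-binomial model (dispersion of at least 1), compared by an F test and adjusted over all 1503 autosomal CpGs (Bonferroni 0.01, Benjamini-Hochberg 0.05). Regions were averaged over CpGs covered in all 14 samples and compared by two-sided exact permutation tests over all 3003 splits, adjusted over 14 clusters, 60 features or 19 targets. The 95% intervals are the shifts that the exact test does not reject. Clusters are 3 or more CpGs within 500 bp of the next that differed among 8 P60 segments other than segment 3. Features follow RefSeq and promoters are the 1000 bp before a start. Named sites are the 10 lowest p in each direction in the locus, the 5 lowest elsewhere and the lowest in each cluster. Named regions are all clusters, the features the study names and the 3 features with the largest rise and fall. Lane numbers, which need not mark the same run, and the merged mark come from file names. Of the files' rows, 47899 were common to all and 10 were left out. Probe arms were placed on the genome with the study's probe table.

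Alternatives were coverage minimums of 10 and 100, limma on log2 odds (pseudocount 0.5), lane, the replicate block, shared lanes, no merged file, pooled reads, CpGs up to 90% and each sample left out. Added after the data were seen were the settings without P90 replicates 4 and 5, without CpGs read only in a probe arm and with the dispersion as estimated, and for LAC+ without replicates 5, 6 and 7. The members and lists were chosen with earlier results of these data known. Models were tested on simulated data in which 200 CpGs were shifted by 20 points. The called CpGs of the locus differed by less, and finding differences of their size was not tested. Python 3.11.15, NumPy 2.4.6, SciPy 1.17.1, pandas 2.3.3, R 4.3.3 and limma 3.58.1 were used.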

Additional observations from a re-analysis of the deposited data

Results flagged for a closer look

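In 8 groups of region values the highest or lowest sample lay farther from the rest than Dixon's 95% limit allows. These are 6.90% of the groups checked, where chance gives about 1 in 20. In the cluster Lct exon 8-intron 8, P60 replicate 7 read 77.3% against 74.1 to 75.4% in the others. In the cluster Mcm6 intron 16, P90 lactose-free replicate 1 read 84.9% against 86.3 to 86.9%. In Mcm6 intron 1, P60 replicate 8 read 12.5% against 7.13 to 9.32%, and P90 lactose-free replicate 5 read 13.2% against 7.90 to 9.86%. At Blcap, P90 lactose-free replicate 5 read 84.7% against 90.8 to 92.5%. At Grb10, P60 replicate 7 read 62.7% against 59.4 to 60.9%. At Slc38a4, P90 lactose-free replicate 6 read 41.8% against 47.1 to 47.9%. In the cluster Mcm6 exon 4, P90 lactose replicate 7 read 71.2% against 77.7 to 82.1%.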

How the results depend on the processing

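Of the 85 results, 75 were not main results, and these had 1792 alternative values. Of those values 1609 kept their side of the threshold, 141 lost it, 11 gained it, 31 moved and 0 of the called results turned. The main results are not in this tally, and most of them follow. The 1 CpG of the locus at Bonferroni 0.01 became 25 with Benjamini-Hochberg, and 0 with lane as a covariate, in shared lanes, without the merged file (P90 replicate 5) and without P90 replicates 4 and 5. Leaving out 1 sample gave 0 to 1. In the other targets the count of 0 became 89 with Benjamini-Hochberg, 6 without the merged file, 1 with limma and 3 without replicates 4 and 5, and 0 to 8 with 1 sample left out (8 without P60 replicate 8). The 1 called cluster became 2 with clusters chosen among all 9 P60 segments. It became 0 with pooled reads, in shared lanes, without the merged file and without replicates 4 and 5, and 0 to 2 with 1 sample left out. In shared lanes the exact permutation p of Mcm6 intron 16 was 0.0167, the smallest those samples allow. The cluster count depended on the sample left out. It was 2 without P60 replicate 8. The 0 called features became 2 with pooled reads and 0 to 2 with 1 sample left out (1 without P60 replicate 3, 2 without P90 replicate 4). The locus mean difference of -0.178 points was -0.859 with pooled reads (exact permutation p = 0.04995) and -0.585 without replicates 4 and 5, and ran from -0.480 to 0.0701 with 1 sample left out. The locus minus the other targets was 0.401 points with pooled reads. The causes were not tested, beyond the fewer samples in the shared lanes. The fall of the other targets (-1.53 to -1.06 points) and the CpH rise (0.0747 to 0.100 points) kept their side in every setting run.

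Replicate numbers did not pair the samples: deviations of the 6 same-numbered pairs correlated with a mean r of 0.126 (-0.281 to 0.439), against -0.0175 for different numbers, and 2 of 6 P90 samples correlated best with their own number. With the replicate block over replicates 1 to 6, 0 CpGs of the locus and 0 of the other targets passed by either adjustment. In that block 0 clusters and 0 of the 19 targets were called, and the locus mean differed by -0.0416 points (exact sign-flip p = 0.969). The block leaves out P60 replicates 7 and 8.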

Other observations

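At CpGs of the locus tested on both strands, 65.2% of the strand pairs differed in the same direction between the ages. The differences of the strands between the ages lay a median of 0.818 points apart, and where both strands differed by more than 2 points, 18 of 19 went the same way.

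By level at P60, the locus CpGs between 20 and 40% were higher at P90 in 17 of 22, with a median of 3.85 points, and -1.77 without replicates 4 and 5. Those between 40 and 60% had a median of 0.313 points, and -2.26 without both. Those above 90% had -0.559 and -0.333.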
